A study of Saccharomyces cerevisiae with 8 samples.

Results

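The general stress effector genes of budding yeast (Saccharomyces cerevisiae) are genes that many different stresses induce together and whose products act on cell structures, metabolites or proteins rather than on other genes. They were chosen by systematic name, with earlier results of these data known. The fixed list left out chaperones, catalases and the genes of glycogen and trehalose metabolism, and held 36 genes. Of these, 34 had a row among the 6713 open reading frames quantified, and the other 2 were not analysed here. RNA was sequenced from 8 cultures of the laboratory strain BY4741, a MATa haploid, in 4 groups of 2 biological replicates, all harvested in mid-exponential growth. Inductant 1 and inductant 2 are wild-type cells that came through separate inductions of the state named [SMAUG+]: VTS1 was overexpressed from a plasmid for 48 h, the plasmid was removed and the cells were passaged for several generations. The vts1 deletion group lacks VTS1 and was otherwise untreated, and the naive group is untreated wild type. VTS1 encodes the yeast Smaug protein, which binds RNA hairpins and promotes decay of the bound transcripts. Each inductant group stands for a single induction event. The labels do not say whether the replicates of a group came from separate clones, so p-values measure the spread between the replicates as labelled.

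In yeast, the general stress response is driven mainly by the related zinc-finger activators Msn2 and Msn4, which bind the stress response element, AGGGG, in the promoters of their targets. While glucose is plentiful, protein kinase A keeps both factors out of the nucleus, and stress, starvation or slowing growth releases them. The effector genes therefore tend to be expressed below their stress levels in exponential cultures and to rise together when cells leave that state.

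Stress response elements were searched for in the 500 bases upstream of each coding start, as AGGGG or its complement CCCCT, so that both strands were covered. At least 1 element was present upstream of 29 of the 34 genes, which is 85.3%, against 2044 of 5993 coding genes of the genome, which is 34.1%. At least 2 elements were present upstream of 16 of the 34 genes, which is 47.1%, against 490 of the 5993, which is 8.18%. These 5 letters were not in this window of GRE1, YPR1, OYE3, GPP1 and DAK1. A match is a description of the sequence and does not show that a factor binds it. The element nearest to the start is shown for the 10 genes that were lower in the inductants than in naive cells, and for the 5 further genes with an element that had the largest fold changes among those called higher in the deletion, because the comparisons of these groups turn on them. Each window holds 25 bases on the strand of the gene, 5′ to 3′, from the RefSeq genome of build R64, with the element in capitals.
TMA10 (chrXII:783711-783735, minus strand, 338 bases upstream): gagccaccccCCCCTcaggagtaaa
STF2 (chrVII:508539-508563, minus strand, 189 bases upstream): cttcgaaaacAGGGGgctgcgagcg
RTN2 (chrIV:94435-94459, plus strand, 160 bases upstream): taggcaatctCCCCTtattgttcac
PHM7 (chrXV:162047-162071, plus strand, 299 bases upstream): ttcttcgatcCCCCTcatcgtgatg
MSC1 (chrXIII:16794-16818, minus strand, 132 bases upstream): aggcggtgaaAGGGGatcgacaggg
NCE102 (chrXVI:829585-829609, plus strand, 323 bases upstream): aaaaatcataCCCCTataaattcct
DCS2 (chrXV:657106-657130, plus strand, 148 bases upstream): gggggaaataAGGGGtgacaatacc
RTC3 (chrVIII:280610-280634, plus strand, 200 bases upstream): acaacaacgaCCCCTtatttagtcg
GAD1 (chrXIII:770628-770652, plus strand, 163 bases upstream): caccagaaaaAGGGGatcagtaaag
PNC1 (chrVII:428161-428185, minus strand, 228 bases upstream): ttcaaggggcAGGGGtttccgtttg
DDR2 (chrXV:231916-231940, minus strand, 175 bases upstream): tcttttctcaCCCCTtatgggacat
HBT1 (chrIV:60531-60555, minus strand, 140 bases upstream): ataataccacCCCCTcaagaaaatt
YGP1 (chrXIV:336101-336125, plus strand, 434 bases upstream): ttctcgaagaAGGGGccgaaaatta
GPP2 (chrV:280942-280966, minus strand, 274 bases upstream): catagctgccCCCCTaaacgggcct
HSP31 (chrIV:1502368-1502392, minus strand, 222 bases upstream): gcttggcataAGGGGcatgtacata

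The genes did not share 1 arrangement of elements. DDR2 and PNC1 had 4 elements each, RTC3, NCE102, PAI3 and GTT1 had 3 each, and 13 genes, TMA10 and GAD1 among them, had 1. In the window of PNC1 shown above, the lower-case letters aagggg hold a neighbouring element 6 bases farther from the start, at 234 bases. The nearest and farthest elements over the genes lay 81 bases upstream in TFS1 and 483 bases upstream in RTC3. SIP18 and PAI3 are divergent neighbours on chromosome XIII, and 2 elements of their common upstream region count for both. All 10 genes that were lower in the inductants had at least 1 element, as did 19 of the 24 that were not called. Of the 14 genes that were higher in the deletion, 13 had at least 1 element, as did all 4 that were lower and 12 of the 16 not called there.

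**Figure D1:**
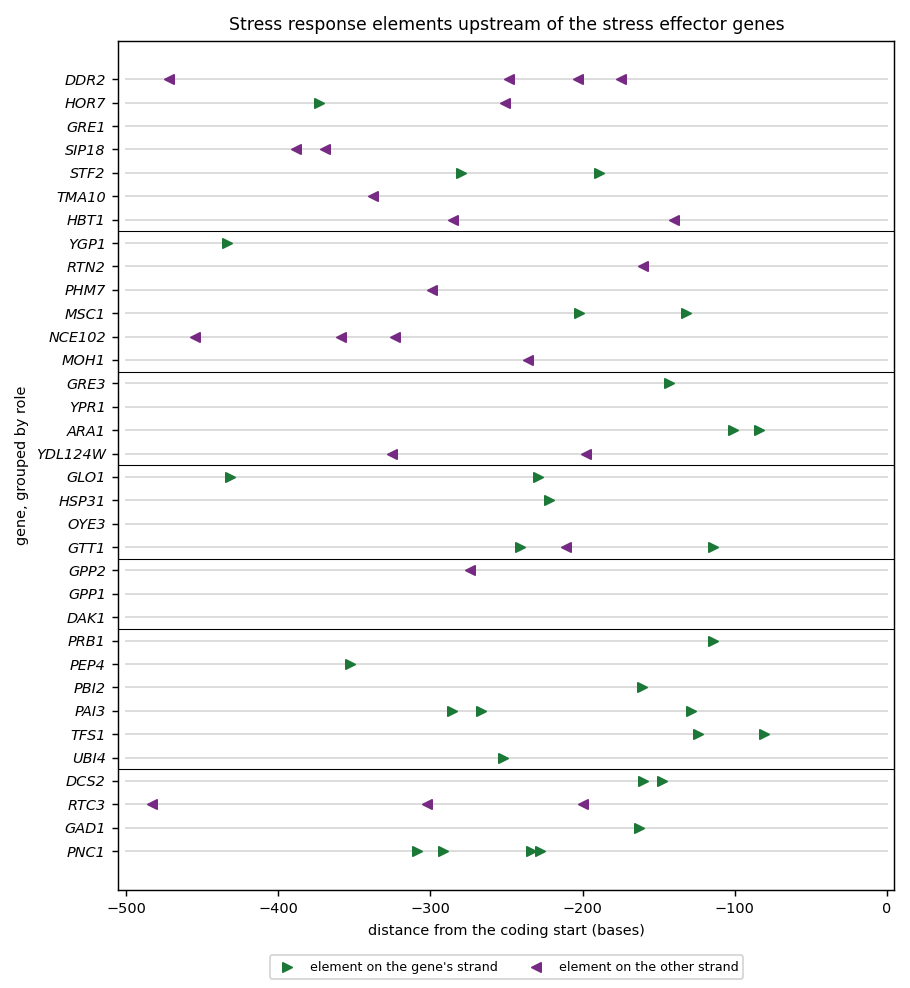
Positions of the stress response elements (AGGGG on either strand) in the 500 bases upstream of the coding start, by gene and grouped by role, with the distance from the start in bases on the x axis. Triangles pointing right are elements on the strand of the gene and triangles pointing left are elements on the other strand; 29 of 34 genes hold at least 1.

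Depth ran from 18431474 to 27501966 estimated counts per library, and the limit behind a count of 0 is 3 counts, or 0.109 to 0.163 CPM (counts scaled to a common library total), for counting error only. The VTS1 row held 490 and 650 counts in the inductant 1 libraries, 794 and 594 in those of inductant 2, 0 and 2 in the deletion, and 472 and 488 in naive cells, so the deletion shows as labelled. LEU2, URA3 and MET17, which BY4741 lacks, were at 0 in every library. The 6 MATa-specific genes summed to 616 to 617 CPM in inductant 1, 698 to 719 CPM in inductant 2, 734 to 750 CPM in the deletion and 588 to 616 CPM in naive cells, with MFA1 and MFA2 at 0 throughout, as were all 120 rows under 150 bases. The 4 MATalpha-specific genes summed to 25.2 to 29.9 CPM. Among rows of 150 to 300 bases, a class that holds 7 of the stress effector genes, 18.8% were at 0 in every library. The 204 rows tested in that class had median log2 fold changes of -0.11 in the inductants against naive, 0.11 in the deletion against naive and -0.24 in the inductants against the deletion, and the part of transcript length in the results was not tested. In bulk RNA, fewer cells expressing a gene and less RNA per cell cannot be told apart.

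All 34 genes passed the filter on low counts. Per length, in TPM (transcripts scaled by length and to a common total) in naive cells, their levels spanned from 1321 ± 301 for GPP1 to 2.16 ± 0.715 for OYE3 (SD, n = 2). GPP1, a glycerol-3-phosphate phosphatase, and HOR7, a small protein induced by high osmolarity at 1267 ± 99.3 TPM, headed the order and did not differ beyond their spread. The vacuolar proteinase PEP4 followed at 785 ± 30.9 TPM, then TMA10 at 663 ± 125 TPM and STF2 at 621 ± 60.9 TPM, and TMA10 did not differ from either neighbour beyond its spread. At the low end, GRE1 at 8.79 ± 2.57 TPM, PHM7 at 6.32 ± 0.146 TPM and SIP18 at 5.63 ± 5.02 TPM overlapped. Summed over the 34 genes, the libraries held 6156 and 6154 CPM in inductant 1, 5167 and 5588 CPM in inductant 2, 7101 and 7323 CPM in the deletion, and 6055 and 6318 CPM in naive cells. Inductant 2 replicate 1 held the lowest value of the 8 libraries for 22 of the 34 genes. The deletion libraries held the highest value for 9 and 12 of them. How often each library was lowest or highest over all genes was not counted. Replicates also differed within groups: replicate 2 was above replicate 1 for 30 genes in inductant 2 and for 28 genes in naive cells, with medians of 0.14 and 0.12 on the log2 scale, where 51.2% and 52.2% of all genes were higher in replicate 2. The part of these replicate differences in the results was not tested.

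**Figure D2:**
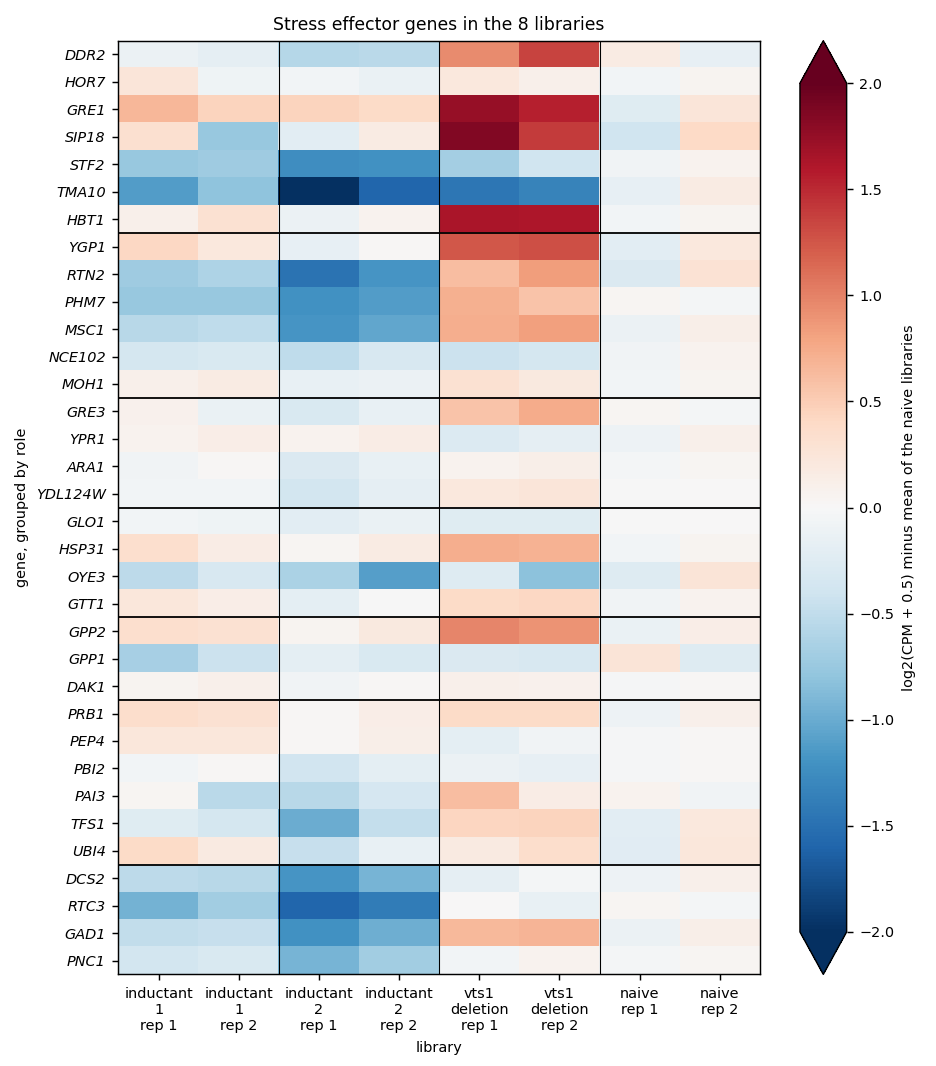
Heat map of the 34 stress effector genes (rows, grouped by role) in the 8 libraries (columns, inductant 1, inductant 2, vts1 deletion and naive, 2 replicates each). Colour is log2(CPM + 0.5) minus the mean of the naive libraries; TMA10, RTC3 and RTN2 are darkest blue in inductant 2, and HBT1, GRE1 and YGP1 are red in both deletion libraries.

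The first question was how the effector genes stood in cells that had been through a [SMAUG+] induction, compared with naive cells. For both inductants together, the average of the inductant 1 and inductant 2 means was tested against naive. The SE and p-value of this average hold the spread between replicates and not the difference between the inductions. In this test 10 of the 34 genes passed an adjusted p of 0.05, where 8.57% of all genes did. All 10 were lower than in naive cells, where 5.6% of all genes were. None was higher, where 2.97% of all genes were, and DESeq2 called none higher either. In either direction, 18 of the 34 genes had an unadjusted p under 0.05 in this edgeR test, beside 1648 of all 6230 genes. The 10 were the ribosome-associated protein TMA10 and its paralog STF2, the membrane proteins RTN2, PHM7, MSC1 and NCE102, and all 4 genes of RNA, glutamate and NAD metabolism, which are DCS2, RTC3, GAD1 and PNC1. The median log2 fold change of the 34 genes was -0.16, beside -0.01 for all 6230 genes tested. The 4 inductant libraries lay wholly below both naive libraries for 14 genes, beside 14.9% of all genes, and wholly above them for 2, GRE1 and PEP4, beside 14.9% of all genes. All 10 calls were kept when any of the 8 libraries was left out, and NCE102 alone was lost with limma on log2(TPM + 1), at an adjusted p of 0.0763. Without naive replicate 2, 15 genes were called, with GRE1, YGP1, GPP2 and PRB1 higher and GPP1 lower in addition, and 19.5% of all genes were called in that fit.

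The deletion was set against the same naive libraries. There, 18 of the 34 genes were called, where 26.3% of all genes were. Of these, 14 were higher in the deletion, where 11.7% of all genes were, and 4 were lower, where 14.6% of all genes were. The largest increases among the called genes were in DDR2, GRE1, HBT1 and YGP1, and the 4 lower genes were TMA10, STF2, NCE102 and GLO1. The median log2 fold change was 0.26, beside 0.00 for all genes. Both deletion libraries lay above both naive libraries for 21 genes, beside 32.4% of all genes, and below them for 9, beside 32% of all genes. Without deletion replicate 1 or without deletion replicate 2 the count was 13, where 11.2% and 11.7% of all genes were called. With only the groups compared, RTN2, YDL124W and GLO1 missed the threshold (adjusted p = 0.062, 0.0543 and 0.0567), and with limma GLO1 and NCE102 did (adjusted p = 0.159 and 0.0637). With scaling by total counts only, which moved the median of all genes by 0.15 in this comparison, the deletion had 16 genes higher and 2 lower, and 1506 of 1941 calls over all genes were higher, in place of 729 of 1637.

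Set directly against each other, the inductants and the deletion differed in 23 of the 34 genes, where 37.6% of all genes were called. The inductants were lower for 21, where 19% of all genes were lower, and higher for 2, where 18.7% of all genes were. The 2 higher genes were the aldo-keto reductase YPR1 and the proteinase PEP4. The median log2 fold change was -0.50, beside -0.02 for all genes. Every inductant library lay below both deletion libraries for 23 genes, beside 28.4% of all genes, and above them for 3, beside 27% of all genes. With scaling by total counts only, which moved the median of all genes to -0.20, no effector gene was higher and 24 were lower. In that fit 45.9% of all genes were called, 520 of the 2861 as higher in the inductants. The comparisons of the inductants and of the deletion with naive cells share the naive libraries, so their values are given side by side below, gene by gene, and are not correlated with each other.

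**Figure D3:**
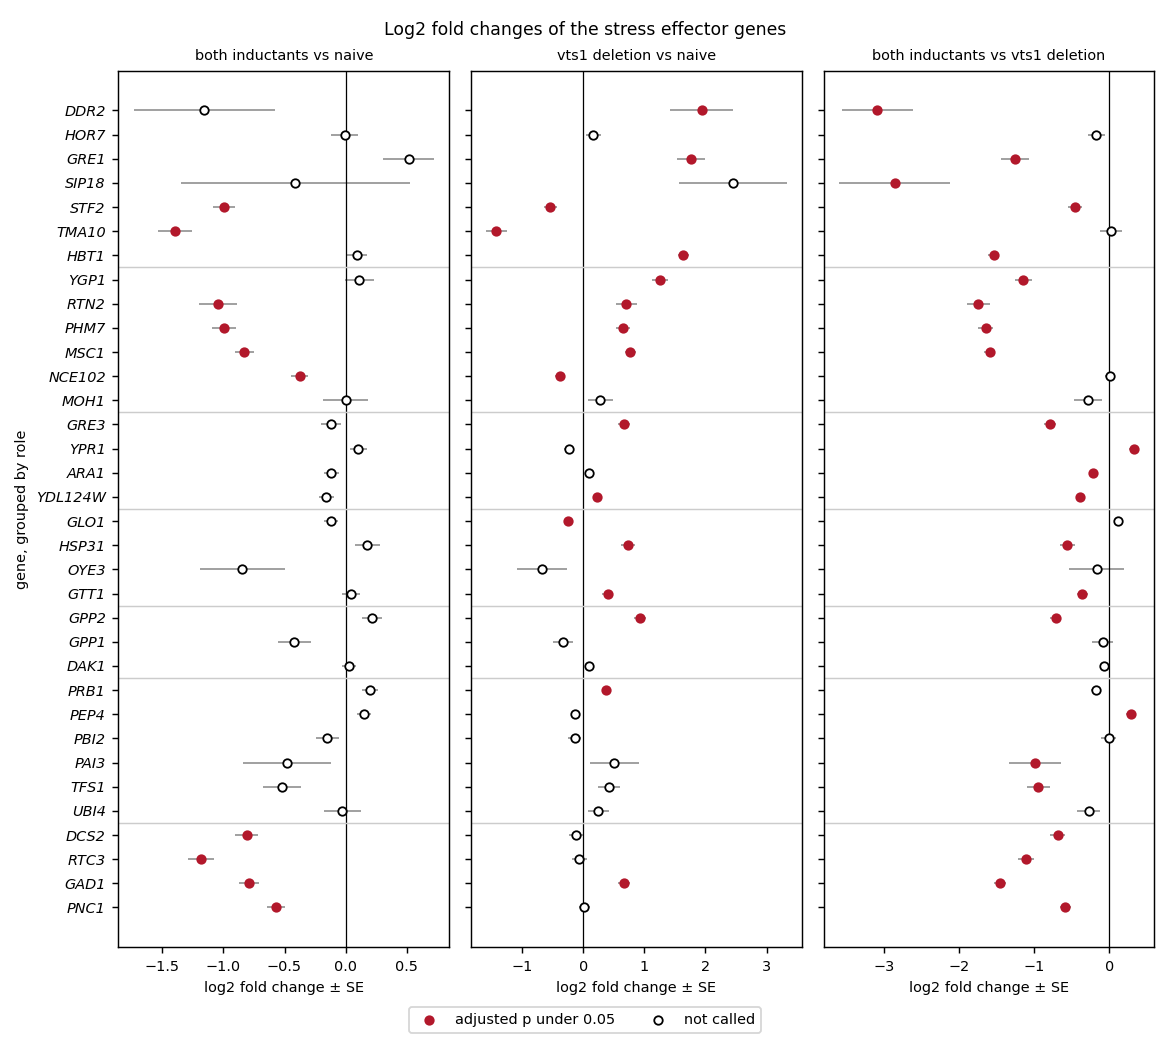
Log2 fold changes ± SE of the 34 stress effector genes, grouped by role, for both inductants against naive (left), the vts1 deletion against naive (middle) and both inductants against the deletion (right). Filled points have an adjusted p under 0.05: 10 on the left, all below 0, 18 in the middle, of which 14 are above 0, and 23 on the right, of which 21 are below 0.

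The proteins of osmotic and drying stress are mostly small and hydrophilic, and their 7 genes form 3 pairs of paralogs and HBT1, whose coding sequence of 3141 bases is far longer than the others. TMA10 (YLR327C, R64 chrXII:783127-783387, a single-exon gene), whose product associates with ribosomes and whose function is not well known, had 27.2 and 33.7 CPM in inductant 1, 14.5 and 19.6 CPM in inductant 2, 21.6 and 23.2 CPM in the deletion, and 52.9 and 67 CPM in naive cells. The naive libraries were the highest, and no library of another group reached them. Its log2 fold change was -1.40 ± 0.14 in the inductants against naive (SE, adjusted p = 0.000367), -1.42 ± 0.17 in the deletion against naive (adjusted p = 0.000365) and 0.03 ± 0.15 in the inductants against the deletion (adjusted p = 0.905). STF2 (YGR008C, chrVII:508110-508364), a hydrophilin that helps cells survive drying and also a factor of the mitochondrial ATP synthase, had 30.7 and 31.7 CPM in inductant 1, 21.6 and 22.2 CPM in inductant 2, 32.5 and 39.2 CPM in the deletion, and 49.4 and 54.9 CPM in naive cells. Here too the naive libraries stood above all others. STF2 was lower than naive by -0.995 ± 0.09 in the inductants (adjusted p = 0.000121) and by -0.54 ± 0.11 in the deletion (adjusted p = 0.00428), both as log2 fold changes. Against the deletion, the inductants had a log2 fold change of -0.45 ± 0.09 for STF2 (adjusted p = 0.00366). Without deletion replicate 1 the deletion against naive gave -0.41 (adjusted p = 0.0642), and without deletion replicate 2 the inductants against the deletion gave -0.31 (adjusted p = 0.0839).

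The other pairs did not follow TMA10 and STF2. GRE1 (YPL223C, chrXVI:128632-129138), a hydrophilin induced by osmotic stress, had 5.25 and 4.42 CPM in inductant 1, 4.44 and 4.22 CPM in inductant 2, 11.6 and 10.2 CPM in the deletion, and 2.57 and 3.78 CPM in naive cells. Its log2 fold change was 1.77 ± 0.23 in the deletion against naive (adjusted p = 0.000328) and -1.25 ± 0.18 in the inductants against the deletion (adjusted p = 0.000433). The inductants lay above both naive libraries for GRE1, with a log2 fold change of 0.51 ± 0.21 that did not pass the test (adjusted p = 0.143). SIP18 (YMR175W, chrXIII:611016-611255), its paralog and a desiccation protein, was counted 11 and 0 times in inductant 1, 5 and 9 times in inductant 2, 56 and 35 times in the deletion, and 3 and 15 times in naive cells. The deletion libraries were the highest for SIP18. The difference of the deletion from naive was 2.45 ± 0.88 on the log2 scale and missed the threshold (adjusted p = 0.0706). It passed with DESeq2 (adjusted p = 0.0316) and with only the groups compared (adjusted p = 0.0275). The inductants were lower than the deletion, a call with a log2 fold change of -2.86 ± 0.75 (adjusted p = 0.0156). Leaving out inductant 2 replicate 1, deletion replicate 1 or deletion replicate 2 ended this call against the deletion. Without inductant 1 replicate 1 the value was -5.63 (adjusted p = 0.0024), a fit in which inductant 1 is left with the library at 0, so that the size of this fold change is not defined by the counts.

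DDR2 (YOL052C-A, chrXV:231570-231755), a small protein induced by DNA damage and many other stresses, was counted 6 and 7 times in inductant 1, 2 and 2 times in inductant 2, 26 and 35 times in the deletion, and 10 and 7 times in naive cells. Its log2 fold change was 1.94 ± 0.51 in the deletion against naive (adjusted p = 0.0181) and -3.09 ± 0.47 in the inductants against the deletion (adjusted p = 0.00057). The increase over naive rests on few counts, and it was lost with DESeq2 (adjusted p = 0.0607) and without naive replicate 2, deletion replicate 1 or deletion replicate 2, at adjusted p-values of 0.097, 0.0506 and 0.14. HOR7 (YMR251W-A, chrXIII:774752-774931), the paralog of DDR2, had 27.6 and 21.9 CPM in inductant 1, 22.4 and 21.1 CPM in inductant 2, 27.1 and 25 CPM in the deletion, and 22.4 and 24.2 CPM in naive cells. Its log2 fold changes were -0.01 ± 0.11, 0.16 ± 0.13 and -0.17 ± 0.11 for the inductants against naive, the deletion against naive and the inductants against the deletion, with adjusted p-values of 0.972, 0.375 and 0.246. HBT1 (YDL223C, chrIV:57265-60405), a target of the ubiquitin-like protein Hub1 that acts in cell polarity, had 58.8 and 68 CPM in inductant 1, 50.8 and 57.5 CPM in inductant 2, 171 and 170.4 CPM in the deletion, and 53 and 56.9 CPM in naive cells. HBT1 was 3.10-fold higher in the deletion than in naive cells, a log2 fold change of 1.63 ± 0.09 (adjusted p = 8.79e-07). The inductants gave 0.09 ± 0.08 against naive (adjusted p = 0.486) and -1.54 ± 0.07 against the deletion (adjusted p = 1.49e-07).

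Among the 6 genes of the cell surface, membranes and organelles, 4 were lower in the inductants than in naive cells, and in the deletion 4 were higher and 1 was lower. YGP1 (YNL160W, chrXIV:336545-337609), a secreted glycoprotein made when nutrients run low, had 322 and 281 CPM in inductant 1, 216 and 245 CPM in inductant 2, 574 and 593 CPM in the deletion, and 208 and 281 CPM in naive cells. It was 2.39-fold higher in the deletion than in naive cells, with a log2 fold change of 1.26 ± 0.14 (adjusted p = 0.000445), and its inductant and naive libraries overlapped (0.11 ± 0.12, adjusted p = 0.604). RTN2 (YDL204W, chrIV:94605-95786), a reticulon that shapes the endoplasmic reticulum, had 25.9 and 27.4 CPM in inductant 1, 15 and 18.4 CPM in inductant 2, 65.6 and 76.1 CPM in the deletion, and 34.8 and 51.8 CPM in naive cells. The groups did not overlap, with the naive libraries between those of the inductants and those of the deletion. RTN2 was -1.04 ± 0.16 in the inductants against naive (adjusted p = 0.00528), 0.71 ± 0.18 in the deletion against naive (adjusted p = 0.0215) and -1.75 ± 0.15 in the inductants against the deletion (adjusted p = 7.03e-05), as log2 fold changes. The call in the deletion against naive was lost without deletion replicate 2 (0.60, adjusted p = 0.119).

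PHM7 (YOL084W, chrXV:162356-165331), a membrane protein of poorly known function, had 11.3 and 11.4 CPM in inductant 1, 8.14 and 8.78 CPM in inductant 2, 32.1 and 29.2 CPM in the deletion, and 20.2 and 18.9 CPM in naive cells. MSC1 (YML128C, chrXIII:15135-16676), named for its effect on recombination between sister chromatids in meiosis, had 145 and 149 CPM in inductant 1, 94 and 103 CPM in inductant 2, 353 and 376 CPM in the deletion, and 195 and 232 CPM in naive cells. Both genes had the inductants lowest and the deletion highest, with no overlap between groups. For PHM7 the log2 fold change was -0.995 ± 0.10 in the inductants against naive (adjusted p = 0.000176) and 0.65 ± 0.11 in the deletion against naive (adjusted p = 0.00188). For MSC1 it was -0.83 ± 0.08 (adjusted p = 0.000117) and 0.77 ± 0.09 (adjusted p = 0.000172) in the same comparisons. Between the inductants and the deletion, PHM7 differed by -1.65 ± 0.10 and MSC1 by -1.60 ± 0.07 on the log2 scale, which makes MSC1 3.02-fold lower in the inductants.

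NCE102, a protein of the eisosome domains of the plasma membrane, was lower in both kinds of cells. Its CPM ran from 152 to 176 in the inductants, from 161 to 171 in the deletion and from 208 to 227 in naive cells. The log2 fold change from naive was -0.38 ± 0.07 in the inductants (adjusted p = 0.0079) and -0.39 ± 0.08 in the deletion (adjusted p = 0.00587), and the inductants and the deletion differed by 0.01 ± 0.07 (adjusted p = 0.916). Without deletion replicate 1 the deletion gave -0.35 (adjusted p = 0.0739), and with scaling by total counts only it gave -0.23 (adjusted p = 0.0617). MOH1, a protein of the Yippee family, did not pass the test in any of these comparisons, with log2 fold changes between -0.28 and 0.28.

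The aldo-keto reductases reduce sugars and reactive carbonyls with NADPH. None of the 4 was called in the inductants against naive, and 2 were higher in the deletion. GRE3 (YHR104W, chrVIII:323409-324392), an aldose reductase that also acts on methylglyoxal, had 76.9 and 66.2 CPM in inductant 1, 58.9 and 65.4 CPM in inductant 2, 109 and 121 CPM in the deletion, and 74.8 and 70.4 CPM in naive cells. Its log2 fold change was 0.66 ± 0.09 in the deletion against naive (adjusted p = 0.0006) and -0.79 ± 0.08 in the inductants against the deletion (adjusted p = 4.29e-05), while inductant and naive libraries overlapped (-0.12 ± 0.08, adjusted p = 0.365). YDL124W (chrIV:240259-241197), an alpha-keto amide reductase, had 426 and 423 CPM in inductant 1, 342 and 389.6 CPM in inductant 2, 508 and 522 CPM in the deletion, and 436 and 444 CPM in naive cells. It was higher in the deletion than in naive cells by 0.23 ± 0.07 on the log2 scale (adjusted p = 0.0405). The call did not hold in 5 of the 8 fits that left out a library: without either inductant 1 library, without naive replicate 1 and without either deletion library, with adjusted p-values up to 0.213. YPR1 had 116 and 121 CPM in inductant 1, 116 and 123 CPM in inductant 2, 91.5 and 97.4 CPM in the deletion, and 103 and 118 CPM in naive cells. In YPR1 the deletion libraries were the lowest, and the inductants were above them by 0.33 ± 0.07 (adjusted p = 0.00407), while the deletion missed the threshold against naive (-0.23 ± 0.08, adjusted p = 0.0546). With the replicate block the deletion was called lower than naive (adjusted p = 0.0277). Without deletion replicate 1 the log2 fold change of YPR1 in the inductants against the deletion was 0.29 (adjusted p = 0.0684), and with scaling by total counts only it was 0.16 (adjusted p = 0.108). ARA1, an arabinose dehydrogenase, gave -0.12, 0.09 and -0.21 for the inductants against naive, the deletion against naive and the inductants against the deletion. The last of these passed the test (adjusted p = 0.0201) and was lost without inductant 1 replicate 1, inductant 2 replicate 1 or either deletion library, at adjusted p-values up to 0.176.

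The 4 methylglyoxal and redox enzymes split in the deletion, with 2 higher and 1 lower, and none was called in the inductants against naive. HSP31 (YDR533C, chrIV:1501447-1502160), a DJ-1 family protein that detoxifies methylglyoxal without glutathione, had 22.9 and 19.98 CPM in inductant 1, 18.4 and 20.1 CPM in inductant 2, 30.1 and 29.5 CPM in the deletion, and 17.2 and 18.6 CPM in naive cells. Its increase in the deletion over naive was 0.73 ± 0.11 on the log2 scale (adjusted p = 0.00107). GLO1 (YML004C, chrXIII:261705-262685), glyoxalase I, which disposes of methylglyoxal through glutathione, had 176 and 173 CPM in inductant 1, 159 and 168 CPM in inductant 2, 155 and 156 CPM in the deletion, and 182 and 186 CPM in naive cells. GLO1 was the lower gene, at -0.24 ± 0.06 in the deletion against naive (adjusted p = 0.0187). Leaving out deletion replicate 1 or deletion replicate 2 ended that call, at adjusted p-values of 0.13 and 0.12, as did scaling by total counts only (-0.09, adjusted p = 0.376). GTT1 (YIR038C, chrIX:423809-424513), a glutathione transferase, had 80.8 and 75.3 CPM in inductant 1, 60.3 and 68.7 CPM in inductant 2, 89.7 and 92.2 CPM in the deletion, and 65.5 and 72.4 CPM in naive cells. Its log2 fold change in the deletion against naive was 0.40 ± 0.09 (adjusted p = 0.00685), and 0.38 without deletion replicate 2 (adjusted p = 0.0579). The inductants were below the deletion for HSP31 (-0.56 ± 0.10, adjusted p = 0.00129) and GTT1 (-0.36 ± 0.07, adjusted p = 0.00351). OYE3, an NADPH oxidoreductase counted 17 to 73 times per library, gave -0.84 ± 0.34 in the inductants against naive (adjusted p = 0.148) and -0.68 ± 0.40 in the deletion against naive (adjusted p = 0.245).

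Of the paralogous phosphatases that make glycerol, the cell's osmolyte, GPP2 (YER062C, chrV:279930-280682) is the form induced by osmotic stress. It had 133 and 131 CPM in inductant 1, 109.9 and 121 CPM in inductant 2, 208 and 197 CPM in the deletion, and 96.1 and 117 CPM in naive cells. GPP2 was 1.91-fold higher in the deletion than in naive cells (log2 fold change 0.93 ± 0.09, adjusted p = 6.09e-05). The inductants were lower than the deletion (-0.71 ± 0.08, adjusted p = 6.38e-05) and were not called against naive (0.22 ± 0.08, adjusted p = 0.12). GPP1 (YIL053W, chrIX:255115-255867), the more abundant form, had 523 and 612 CPM in inductant 1, 719 and 671 CPM in inductant 2, 673 and 662 CPM in the deletion, and 988 and 692 CPM in naive cells. The naive replicates of GPP1 differed more from each other than those of any other group. The edgeR fit of all 8 libraries did not call it, at adjusted p-values of 0.105, 0.173 and 0.652. These are for the inductants against naive, the deletion against naive and the inductants against the deletion. DESeq2 called GPP1 lower than naive in the inductants (-0.41, adjusted p = 0.00409) and in the deletion (-0.33, adjusted p = 0.0397). DAK1, a dihydroxyacetone kinase, stayed between -0.07 and 0.09 in these comparisons.

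The proteolysis genes comprise the vacuolar proteinases PRB1 and PEP4, the inhibitors PBI2, PAI3 and TFS1, and the polyubiquitin gene UBI4. PRB1 (YEL060C, chrV:40046-41953), proteinase B, had 1365 and 1314 CPM in inductant 1, 1082 and 1175 CPM in inductant 2, 1387 and 1397 CPM in the deletion, and 999.8 and 1143 CPM in naive cells. It was higher in the deletion than in naive cells by 0.38 ± 0.08 (adjusted p = 0.00472). In the inductants against the deletion PRB1 gave -0.18 ± 0.07 (adjusted p = 0.0522). PRB1 was called lower there with no filter, the replicate block, total counts only or only the groups compared. RLE scaling, limma and DESeq2 did not call it. PEP4, proteinase A, which activates the other vacuolar proteases, ranged from 914 to 1058 CPM in the inductants and from 785 to 854 CPM in the deletion, a log2 fold change of 0.29 ± 0.06 (adjusted p = 0.0035). Without deletion replicate 1 it was 0.23 (adjusted p = 0.0906), and with scaling by total counts only 0.11 (adjusted p = 0.156). TFS1, an inhibitor of carboxypeptidase Y, ranged from 31.4 to 53.4 CPM in the inductants, from 84.8 to 86.2 CPM in the deletion and from 54.6 to 72.8 CPM in naive cells. TFS1 was lower in the inductants than in the deletion (-0.95 ± 0.15, adjusted p = 0.00248) and gave -0.52 ± 0.16 against naive (adjusted p = 0.0806). Against naive, it was called lower with DESeq2 (adjusted p = 0.00381) and with the replicate block (adjusted p = 0.0439). PAI3, the inhibitor of proteinase A, was lower in the inductants than in the deletion at 19 to 31 against 35 to 57 counts (-0.99 ± 0.35, adjusted p = 0.043). The PAI3 call was lost when inductant 1 replicate 2, either inductant 2 library or either deletion library was left out, with adjusted p-values up to 0.345, and with DESeq2 (adjusted p = 0.0749). PBI2, the inhibitor of proteinase B, and UBI4 were not called. Their log2 fold changes lay between -0.27 and 0.25 in both inductants against naive or the deletion and in the deletion against naive. In inductant 1 against inductant 2, UBI4 gave 0.59 ± 0.17 and was not called in the edgeR fit of all 8 libraries (adjusted p = 0.19). DESeq2 called it there (adjusted p = 0.00177), as did edgeR with only the groups compared (adjusted p = 0.0451).

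The 4 genes grouped here under RNA, glutamate and NAD metabolism do not form 1 pathway. All 4 were lower in the inductants than in naive cells and lower than in the deletion. RTC3 (YHR087W, chrVIII:280820-281155), a protein linked to RNA metabolism and telomere capping, had 15.7 and 18.8 CPM in inductant 1, 9.97 and 11.4 CPM in inductant 2, 30.9 and 27.8 CPM in the deletion, and 31.7 and 29.9 CPM in naive cells. DCS2 (YOR173W, chrXV:657264-658325), a stress-induced regulator of the scavenger decapping enzyme Dcs1, had 36.8 and 36 CPM in inductant 1, 23.1 and 27.5 CPM in inductant 2, 46.5 and 51.4 CPM in the deletion, and 49.2 and 57 CPM in naive cells. PNC1 (YGL037C, chrVII:427297-427947), the nicotinamidase of the NAD salvage pathway, had 197 and 205 CPM in inductant 1, 132 and 157 CPM in inductant 2, 244 and 266 CPM in the deletion, and 246 and 259.6 CPM in naive cells. For these 3 genes the deletion and naive libraries overlapped and every inductant library lay below them. The log2 fold change from naive in the inductants was -1.18 ± 0.11 for RTC3 (adjusted p = 0.000117), -0.81 ± 0.09 for DCS2 (adjusted p = 0.000451) and -0.57 ± 0.07 for PNC1 (adjusted p = 0.000871). The deletion against naive gave -0.07 ± 0.12 (adjusted p = 0.714), -0.12 ± 0.11 (adjusted p = 0.456) and 0.01 ± 0.09 (adjusted p = 0.927) for RTC3, DCS2 and PNC1. The direct comparison of the inductants with the deletion gave -1.11 ± 0.11 for RTC3 (adjusted p = 2.91e-05), -0.69 ± 0.09 for DCS2 (adjusted p = 0.000293) and -0.58 ± 0.07 for PNC1 (adjusted p = 0.000177).

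GAD1 (YMR250W, chrXIII:770801-772558), glutamate decarboxylase, which starts the breakdown of glutamate through GABA, had 124 and 126 CPM in inductant 1, 75.2 and 88 CPM in inductant 2, 274 and 279.9 CPM in the deletion, and 159.9 and 189 CPM in naive cells. As in RTN2, PHM7 and MSC1, the inductants were lowest, the naive libraries lay between and the deletion was highest. GAD1 was -0.79 ± 0.08 in the inductants against naive (adjusted p = 0.00018), 0.66 ± 0.09 in the deletion against naive (adjusted p = 0.00057) and -1.45 ± 0.08 in the inductants against the deletion (adjusted p = 4.61e-07), all as log2 fold changes.

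**Figure D4:**
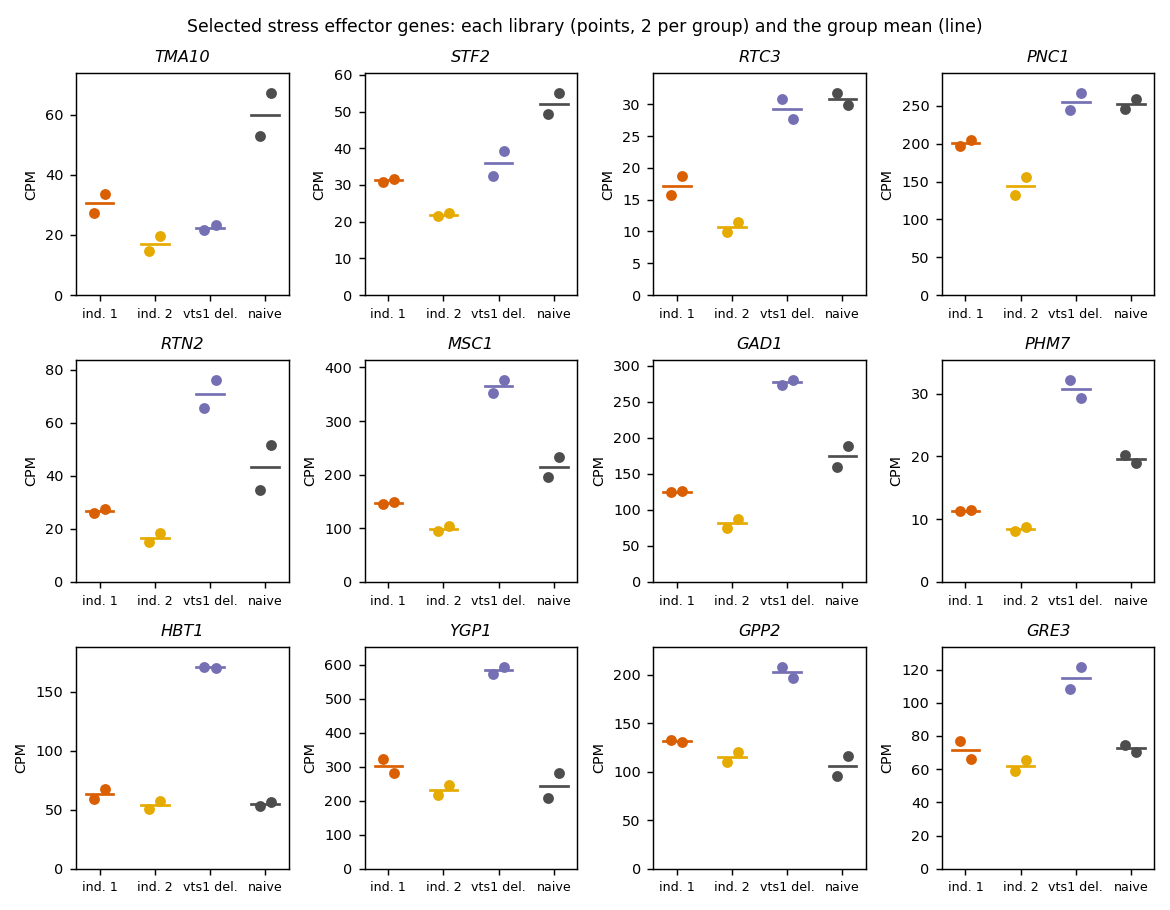
CPM of 12 stress effector genes in each library (points, 2 per group) with the group mean (line) for inductant 1, inductant 2, vts1 deletion and naive, with y axes that start at 0. In the top row the inductants lie below naive cells for TMA10, STF2, RTC3 and PNC1; in the middle row the inductants are lowest and the deletion highest; in the bottom row the deletion is highest.

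The separate inductions were also set against naive cells one at a time. In inductant 1, 9 genes were called, where 4.4% of all genes were. Of these, 8 were lower than naive, where 3.19% of all genes were, and 1 was higher, PRB1 at 0.32 ± 0.08 (adjusted p = 0.0431), where 1.2% of all genes were. In inductant 2, 12 genes were called, where 9.04% of all genes were. All 12 were lower, where 5.79% of all genes were, and none was higher, where 3.24% of all genes were. In inductant 2, 18 of the genes had an unadjusted p under 0.05, beside 1545 of all 6230 genes. DESeq2 also called 12 lower and none higher, where 9.82% of all genes were called. Both inductant 1 libraries lay below both naive libraries for 15 genes, beside 26.1% of all genes, and above them for 10, beside 24% of all genes. Both inductant 2 libraries lay below for 21 genes, beside 25.8% of all genes, and above for 2, beside 26.1% of all genes. TMA10 had log2 fold changes of -0.97 ± 0.17 in inductant 1 (adjusted p = 0.0166) and -1.82 ± 0.17 in inductant 2 (adjusted p = 0.000241), and RTC3 had -0.83 ± 0.13 (adjusted p = 0.00744) and -1.53 ± 0.13 (adjusted p = 7.94e-05). The calls in inductant 2 beyond those in inductant 1 included RTN2 at -1.38 ± 0.19 (adjusted p = 0.00319), PNC1 at -0.81 ± 0.09 (adjusted p = 0.000247), TFS1 at -0.74 ± 0.18 (adjusted p = 0.0496) and YDL124W at -0.27 ± 0.07 (adjusted p = 0.0439). In inductant 1, RTN2 gave -0.70 ± 0.18 (adjusted p = 0.0684) and PNC1 -0.33 ± 0.09 (adjusted p = 0.0563). DESeq2 called both there (adjusted p = 0.00172 and 0.0176). TFS1 gave -0.31 ± 0.18 (adjusted p = 0.358) and YDL124W -0.05 ± 0.07 (adjusted p = 0.708) in inductant 1. When inductant 1 replicate 1 was left out, 0 genes were called in inductant 1, and leaving out inductant 1 replicate 2 left 1 gene, where 0.401% and 0.803% of all genes were called. Leaving out naive replicate 2 gave 14, limma gave 0 and DESeq2 gave 14, where 16.8%, 0.257% and 7.93% of all genes were called. Without inductant 2 replicate 1 the calls of RTN2, NCE102, TFS1 and YDL124W in inductant 2 were lost. Their log2 fold changes in that fit were -1.24, -0.33, -0.50 and -0.18. The PRB1 call in inductant 1 was kept without naive replicate 2 and lost in the other 7 fits that left out a library. In inductant 2, TFS1 was kept without inductant 2 replicate 2 or naive replicate 1 and lost in 6 such fits, and YDL124W was kept without inductant 2 replicate 2 or either naive library and lost in 5.

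Tested against each other, the inductions differed in 3 of the 34 genes, where 0.449% of all genes differed. All 3 were higher in inductant 1, where 0.401% of all genes were higher in inductant 1 and 0.0482% were lower. These were GAD1 (0.62 ± 0.10, adjusted p = 0.0309), MSC1 (0.58 ± 0.09, adjusted p = 0.0309) and PNC1 (0.48 ± 0.09, adjusted p = 0.0495), as log2 fold changes of inductant 1 over inductant 2. Of the 34 genes, 31 had a log2 fold change above 0, beside 3103 of all 6230 genes. An unadjusted p under 0.05 was reached by 18 of the 34, beside 964 of all 6230. The median log2 fold change was 0.28, beside 0.00 for all genes. Both inductant 1 libraries lay above both inductant 2 libraries for 26 genes, beside 25.2% of all genes, and below them for 1, GPP1, beside 24.1% of all genes. TMA10 at 0.84 ± 0.17 and RTC3 at 0.69 ± 0.13 gave larger differences that missed the threshold (adjusted p = 0.0752 and 0.051). With RLE scaling PNC1 missed the threshold (adjusted p = 0.0516). The count was 0 without either inductant 1 library, without inductant 2 replicate 1 or without either deletion library, fits in which 0 to 7 of all 6230 genes were called. Without naive replicate 1 or naive replicate 2 the count was 12, where 5.04% and 5.09% of all genes were called. Inductant 2 replicate 1 is the library that held the lowest value for 22 of the genes, a count not made over all genes. Without that library the log2 fold changes were 0.51 for GAD1, 0.51 for MSC1 and 0.36 for PNC1.

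**Figure D5:**
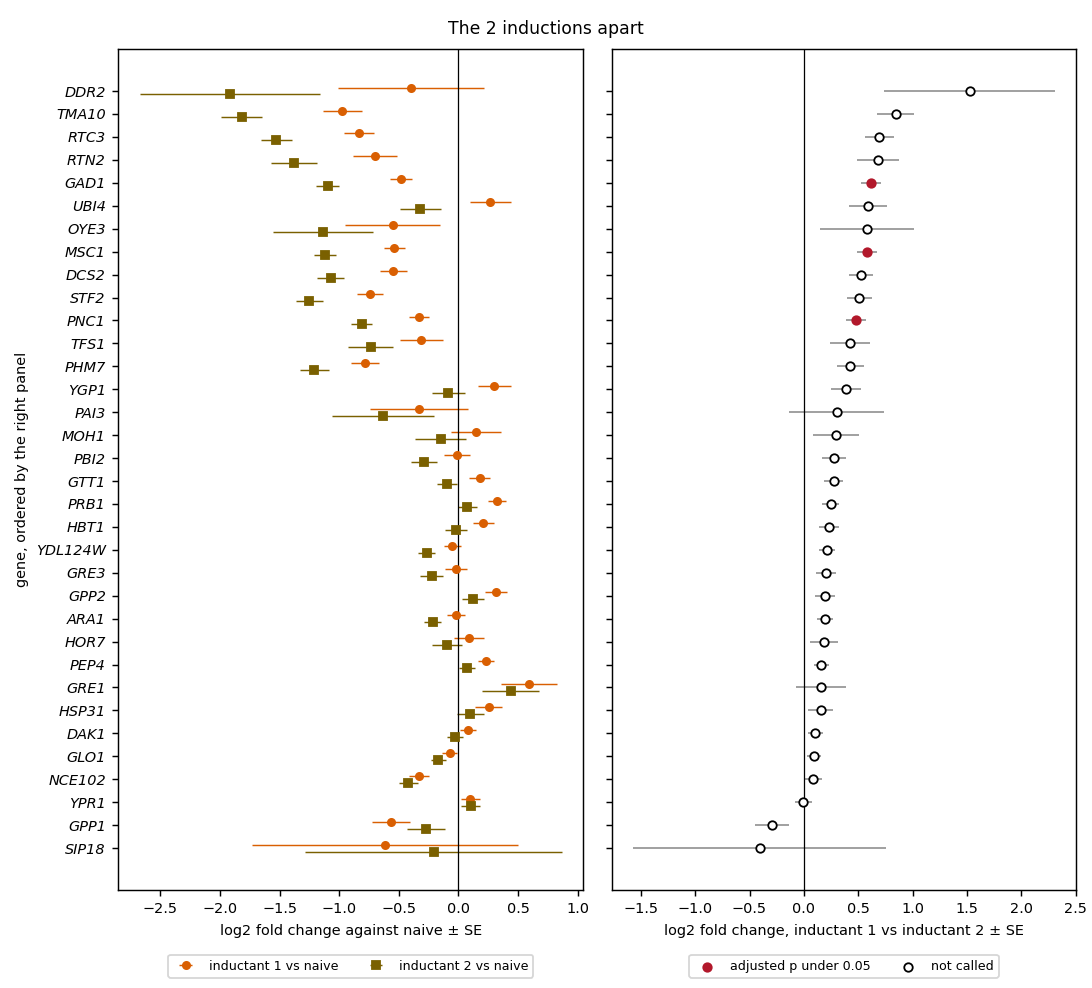
Log2 fold changes ± SE of the 34 stress effector genes for inductant 1 (circles) and inductant 2 (squares) against naive on the left, and for inductant 1 against inductant 2 on the right, with genes ordered by the right panel. Filled points on the right are GAD1, MSC1 and PNC1, the 3 genes called. On the right, 31 of 34 points lie above 0, beside 3103 of all 6230 genes.

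Other genes of the same response were counted from lists drawn up by function, with earlier results of these data known. Of 50 regulators of the response, 1 was higher and 9 were lower in the inductants than in naive cells, which is 2% and 18%, beside 2.97% and 5.6% of all genes, and their median log2 fold change was -0.07. The largest of these were USV1 (-1.10 ± 0.09, adjusted p = 8.27e-05), XBP1 (-0.94 ± 0.09, adjusted p = 0.000176) and GIS1 (-0.84 ± 0.07, adjusted p = 0.000115), which encode transcription factors. In the deletion against naive, 9 regulators were higher and 12 were lower, which is 18% and 24%, beside 11.7% and 14.6% of all genes, with a median of 0.02. PSR2 (1.19 ± 0.09, adjusted p = 1.4e-05) and PDE2 (0.92 ± 0.08, adjusted p = 3.31e-05) were higher there. So was WHI2 (0.87 ± 0.08, adjusted p = 3.3e-05), which encodes a regulator needed for full activation of the stress response. YAK1, a kinase that acts in opposition to protein kinase A, was lower there (-0.94 ± 0.14, adjusted p = 0.00165), as was SSK22 (-0.73 ± 0.13, adjusted p = 0.00264). YAK1 was also lower in the inductants than in naive cells (-0.63 ± 0.11, adjusted p = 0.013). In inductant 1 against inductant 2, MSN4 (0.46 ± 0.08, adjusted p = 0.0484) and XBP1 (0.83 ± 0.11, adjusted p = 0.0173) were the 2 regulators called. Both were higher in inductant 1, which is 4% of the list beside 0.401% of all genes. The other list held 36 stress-induced genes, which encode chaperones, catalases, redoxins and enzymes of glycogen and trehalose metabolism. Of these, 1 was higher and 15 were lower in the inductants than in naive cells, with a median of -0.20. That is 2.78% and 41.7% of the list, beside 2.97% and 5.6% of all genes. In the deletion against naive, 13 of these genes were higher and 10 were lower, with a median of 0.13. That is 36.1% and 27.8% of the list, beside 11.7% and 14.6% of all genes. The inductants against the deletion gave 3 higher and 20 lower, which is 8.33% and 55.6% of the list beside 18.7% and 19% of all genes, with a median of -0.37.

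Hairpins of the kind that Smaug proteins bind were searched for on the sense strand of the coding sequences, as the loop CNGG followed by 0 to 3 further bases and closed by 5 Watson-Crick pairs. They were present in 3 of the 34 genes, which is 8.82%, against 422 of 5995 coding genes, which is 7.04%. The sequences, from the same RefSeq genome, are shown because Vts1 binds such loops, and the capitals mark the first 4 bases of the loop.
NCE102 (chrXVI:830166-830181, plus strand): cactgCCGGtacagtg
PRB1 (chrV:40969-40982, minus strand): tgacaCGGGtgtca
TFS1 (chrXII:513227-513243, minus strand): tgccaCCGGtgttggca

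Of these 3, NCE102 was lower in the deletion than in naive cells, PRB1 was higher and TFS1 was not called (0.42 ± 0.18, adjusted p = 0.127). DESeq2 called TFS1 higher there (adjusted p = 0.0338). A match shows that the letters can pair in this way and does not show binding.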

How the data were processed

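The 34 genes and the other lists were chosen with earlier results of these data known. Total RNA of 8 cultures was depleted of rRNA and sequenced. Per the submitters' processing notes, the authors used kallisto and build R64. The version of kallisto, the read layout and strand use are not given in the sources. The deposited files hold an estimated count and a TPM for each of 6713 open reading frames, per the file headers. Because 99.97% of row lengths were multiples of 3, rows were taken as coding sequence only, and UTR reads went uncounted. The counts of all 34 genes were whole in all 8 libraries (tolerance 1e-06), none of their 31-base stretches occurred in another coding sequence and none overlapped another annotated row.

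Groups came from the sample titles. After rounding of the estimated counts, the robust, two-sided quasi-likelihood test of edgeR 4.0.16 (R 4.3.3) was fitted to all 8 libraries with 1 mean per group, which leaves 4 residual degrees of freedom. TMM factors ran from 0.946 to 1.09, filterByExpr left 6230 genes, and the common biological coefficient of variation was 0.0956. P-values were adjusted by Benjamini-Hochberg over the 6230 genes, and a gene was called at an adjusted p under 0.05. CPM values carry the TMM scaling. Errors are SE of log2 fold changes, or SD of replicates. Alternatives were RLE scaling (the size factors of DESeq2), total counts only, no filter, a replicate block, only the groups compared, limma 3.58.1 on log2(TPM + 1), DESeq2 1.42.0 and leaving out each library. Genes given in every library were those called in either comparison with naive, up to 4 in each role group by size of change, TMA10, and both genes of each paralog pair. Symbols, coordinates and sequences came from the RefSeq annotation of R64, which matched 6026 rows and all 34 genes.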

Additional observations from a re-analysis of the deposited data

Results flagged for a closer look

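The effect against naive cells differed between the separate inductions, by the direct test of inductant 1 against inductant 2, in 3 of the stress effector genes. GAD1 had a log2 fold change of 0.62, MSC1 of 0.58 and PNC1 of 0.48, each higher in inductant 1 than in inductant 2 in both libraries of each group. The 3 calls were lost without either inductant 1 library, without inductant 2 replicate 1 and without either deletion library. Inductant 2 replicate 1 holds the lowest value of all libraries for 22 of the 34 genes, a count not made over all genes. Without that library the log2 fold changes were 0.51, 0.51 and 0.36 for GAD1, MSC1 and PNC1.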

How the results depend on the processing

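Of 1125 values of called genes under the alternatives, 1006 kept their call, 119 lost it and 0 changed sign. Of 1935 values of genes that were not called, 85 changed sign and 90 were called. The number of effector genes called ranged, when a library was left out, from 10 to 15 in the inductants against naive, 13 to 19 in the deletion against naive, 18 to 24 in the inductants against the deletion, 0 to 14 in inductant 1 against naive, 8 to 13 in inductant 2 against naive and 0 to 12 in inductant 1 against inductant 2. In inductant 1 against naive the count was 9 as reported, 0 with limma and 14 with DESeq2, where 4.4%, 0.257% and 7.93% of all genes were called. The median log2 fold change of the genes was -0.06 as reported and 0.039 with limma, beside all-gene medians of -0.0046 and 0.095, so their median lay below that of all genes in both fits. In inductant 1 against inductant 2 the count was 3 as reported, 8 with only the groups compared, 0 with limma and 10 with DESeq2, where 0.449%, 1.59%, 0.0321% and 2.94% of all genes were called. The cause was not tested.

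Over all genes tested, deviations of same-numbered replicates correlated at -0.113 to 0.112 between groups, the highest being inductant 2 with naive. Replicate numbers therefore showed no clear pairing over all genes. A replicate effect shared by the stress effector genes alone was not tested. With the replicate block, 8 genes were called in inductant 1 against inductant 2, where 2.25% of all genes were. It gave 11 in inductant 1 against naive and 11 in the inductants against naive, where 6.77% and 10.4% of all genes were called. Counts under about 30 per library, as in DDR2, SIP18 and PAI3, limit those genes.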
